A study of Mus musculus with 4 samples.

Results

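Intergenic peaks of moderate distance, more than 10 kb and at most 100 kb from the nearest annotated transcription start, made up 652 of 2454 nuclear peaks (26.6%) in the deposited ChIP-seq list of the Flag-tagged Isl1-Lhx3 fusion. A peak was taken as a member when its maximum lay outside every gene body of GENCODE release M1 and within those 2 distance limits, so no measured binding value chose it. The 652 peaks lie in 626 regions. Their nearest starts belong to genes of 514 names.

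The cells were mouse iMN-ESCs, an embryonic stem cell line of the A172LoxP background in which doxycycline (Dox) switches on the fusion from a Tet-inducible construct. Embryoid bodies had 2 days of retinoic acid (0.5 µM), then 4 more days of retinoic acid with Dox at 2 µg/mL (2 libraries) or without it (2 libraries), and all received LIF at 1000 units/mL for the 16 h before harvest. All 4 libraries were precipitated with an anti-Flag antibody, so those without Dox served as the negative control. The labels number the libraries 1 and 2 within each group and describe transfectants selected by drug, without saying whether the line was 1 clone. The list holds 1 ChIP score, 1 background score and 1 tag count per peak and no column for a single library. No value can therefore be compared between with Dox and without Dox, or between the sets, and the depth of each library is unknown. Across all peaks the ChIP score ran from 29.98 to 321.18 and tags per region from 10 to 491. Both scores are the authors' values without a stated scale. No source used here names the libraries behind the background score, so it cannot be read as the level without Dox. Tags are whole-number counts per region.

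In the spinal cord the LIM-homeodomain proteins Isl1 and Lhx3 act together, in a complex with the cofactor Ldb1, to specify spinal motor neurons. Homeodomains read short AT-rich sites built on the core ATTA (TAAT on the other strand), and TAATTA is the palindrome that LIM-homeodomain factors of the Lhx group bind well. Intergenic sites away from promoters are where many enhancers of developmental genes lie, but a binding site alone does not tell which gene, if any, it serves. Genes named here are the nearest by position only.

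The sequences around the maxima show how the homeodomain cores are laid out. The stretches below cover 120 bases each on the plus strand of mm9, with every ATTA or TAAT in capitals. The first 3 are the strongest members, and the Mgat5b and Sik1 members are the strongest after them that hold TAATTA in the 200 bases around the maximum. Lifr and Il6st stand for the LIF receptor complex and Spry2 for the gene with most members by the nearest protein-coding start. The member near Spry2 was chosen for printing after its values were seen.

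Paqr9, chr9:95482643-95482762: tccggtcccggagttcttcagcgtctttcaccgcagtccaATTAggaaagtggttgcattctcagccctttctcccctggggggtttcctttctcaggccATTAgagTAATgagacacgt

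Plekhf2, chr4:10903852-10903971: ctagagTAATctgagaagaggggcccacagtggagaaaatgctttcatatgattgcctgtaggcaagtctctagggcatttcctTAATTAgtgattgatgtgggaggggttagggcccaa

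A230072I06Rik, chr8:12261735-12261854: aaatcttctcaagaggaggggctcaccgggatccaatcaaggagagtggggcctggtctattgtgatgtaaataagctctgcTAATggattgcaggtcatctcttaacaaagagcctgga

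Mgat5b, chr11:116761785-116761904: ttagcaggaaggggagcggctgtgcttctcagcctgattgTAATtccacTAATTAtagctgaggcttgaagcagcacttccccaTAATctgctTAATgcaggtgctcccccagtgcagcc

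Sik1, chr17:31956332-31956451: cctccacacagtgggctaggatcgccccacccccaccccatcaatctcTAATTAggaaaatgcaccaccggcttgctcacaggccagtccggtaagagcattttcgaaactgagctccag

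Lifr, chr15:7065745-7065864: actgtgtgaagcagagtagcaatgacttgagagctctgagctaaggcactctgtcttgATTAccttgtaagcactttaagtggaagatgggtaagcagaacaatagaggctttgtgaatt

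Il6st, chr13:113189606-113189725: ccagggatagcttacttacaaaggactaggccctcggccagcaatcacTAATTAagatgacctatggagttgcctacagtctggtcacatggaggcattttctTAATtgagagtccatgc

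Spry2, chr14:106198642-106198761: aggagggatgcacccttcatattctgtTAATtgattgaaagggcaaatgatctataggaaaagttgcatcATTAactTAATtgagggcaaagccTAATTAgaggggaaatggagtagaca

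All 8 stretches hold at least 1 ATTA core, and those near Plekhf2, Mgat5b, Sik1, Il6st and Spry2 hold TAATTA. The Paqr9 and Spry2 members both carry an ATTA followed after 3 bases by a TAAT, the arrangement counted below over all members.

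The 12 strongest members had ChIP scores from 130.88 to 204.48 and lay near genes of varied function. The first scored 204.48 over a background of 1.46, from 165 tags (95% Poisson interval 141 to 192), and lay 22.5 kb downstream of the start of Paqr9, which encodes a membrane receptor of the progestin and adipoQ receptor family. The second (204.22, background 1.13, 147 tags) lay 30.9 kb from the start of Plekhf2 and slightly nearer to the pseudogene Gm11828. The third (176.92, background 6.55) lay 17 kb upstream of A230072I06Rik. None of these 3 had a background score above 4% of its ChIP score, as 3.7% was the highest.

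The fourth member (161.13) lay 25.6 kb upstream of Gtf2i, which encodes a general transcription factor, with a miRNA gene nearer. The fifth (157.11) lay 22.3 kb upstream of Mgmt, a DNA repair methyltransferase gene. Lifr, which encodes the LIF receptor, had the sixth (143.19, background 4.84, 184 tags) at 13.8 kb upstream. Mgat5b, a glycosyltransferase gene of the brain, had the seventh (142.39, background 0) at 18.3 kb upstream. Ankrd33 (138.11), Ly6c2 (137.57), Sik1, a kinase gene (132.49), the noncoding gene D030068K23Rik (131.15) and Cdc73, a gene of the Paf1 transcription complex (130.88), completed the 12.

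Of these 12 members, 3 had TAATTA in the 200 bases around the maximum, 0 had the STAT site TTCNNNGAA, and each had at least 1 ATTA. The member near Ly6c2 differed from the rest in its background score of 44.21, which is 32.1% of its ChIP score and the highest background score of any nuclear peak in the list. Below the top, scores fell quickly: the quartiles of the 652 members were 34.53, 41.36 and 55.14. Of the 100 highest-scoring peaks of the list, 24 were members (24%), close to the members' 26.6% of all peaks.

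**Figure D1:**
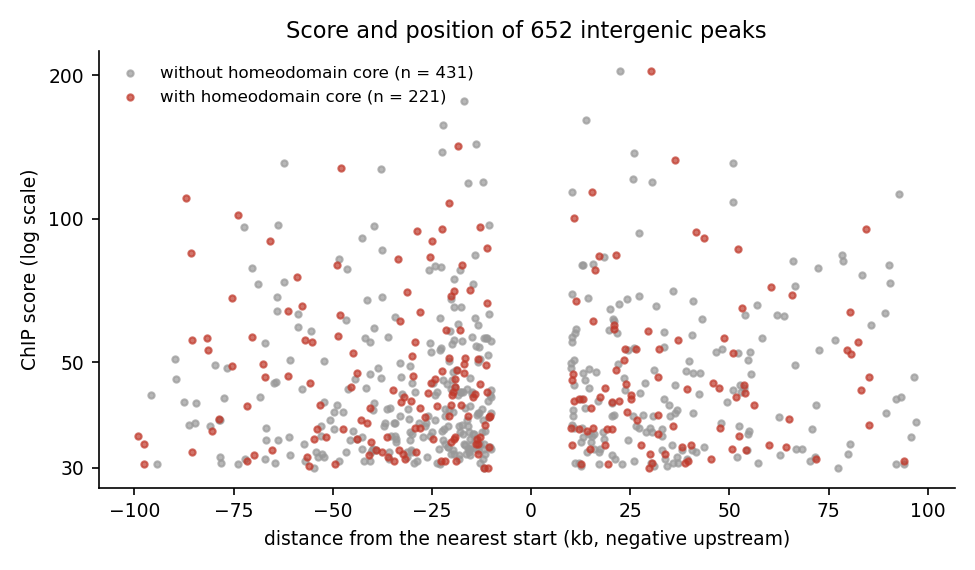
Each point is 1 of 652 intergenic peaks, placed by its distance from the nearest annotated start (kb, negative upstream, x axis) and its ChIP score (log scale, y axis), in red where the 200 bp around the maximum hold TAATTA. Points are densest near the 10 kb limit on both sides, and red and grey points span the same range of scores, from about the list's lowest score to above 200.

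Distances ran from 10 to 99.2 kb, with a median of 30.1 kb and quartiles of 17.9 and 50.9 kb. There were 200 members at 10 to 20 kb, 284 at 20 to 50 kb and 168 at 50 to 100 kb, and their median scores were 41.75, 40.15 and 42.83. TAATTA was present in 31% (24.7 to 37.9), 34.9% (29.3 to 40.7) and 35.7% (28.5 to 43.5) of these bins, with 95% exact binomial intervals that overlap widely. More members lay upstream of the nearest start (387, 59.4%) than downstream of it (265). The rule leaves out gene bodies, which lie downstream of their starts, and its part in this count was not tested. Upstream and downstream members had TAATTA in 33.9% and 34% of cases and median scores of 40.42 and 42.29.

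The nearest start was that of a protein-coding gene for 391 members (60%) and that of another kind of gene for 261, most often a pseudogene (72), a snRNA (41), a miRNA (35) or a processed transcript (34). Counting protein-coding starts alone, the median distance rose to 41.8 kb and 123 members (18.9%) lay more than 100 kb from any. Of those 123, 39% (30.4 to 48.2) had TAATTA, against 32.7% (28.7 to 36.9) of the other 529. Among members between 2 protein-coding genes, 344 lay between genes of the same orientation, 176 between divergent and 130 between convergent genes. The share with TAATTA was 32.6%, 36.4% and 34.6% in these groups. By the kind of gene with the nearest start, the share ran from 25.9% (11.1 to 46.3) of 27 members near snoRNA genes to 45.7% (28.8 to 63.4) of 35 near miRNA genes and 50% (21.1 to 78.9) of 12 near rRNA genes. These intervals are wide, and the groups were not tested against each other.

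Close to the limits (negative distances are upstream), the 2 innermost members lay at -10.014 kb from the start of a U7 gene (score 42.29) and -10.055 kb from that of Anln (55.40). The intergenic peaks just left out lay at -9.996 kb from Gm15962 (33.46) and -9.933 kb from Atoh7 (51.39). At the outer limit the members lay at -99.240 kb from a U6 gene (35.06) and -97.590 kb from n-R5s92 (33.72). Those just left out lay at -101.732 kb from a SNORA17 gene (40.42) and -102.028 kb from 1700012A03Rik (33.19).

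The homeodomain core was several times as frequent at the members as beside them. TAATTA was in 221 of 652 windows of 200 bp centred on the maximum (33.9%, 30.3 to 37.7), against 77 of 1304 windows of the same size centred 1 kb to each side (5.9%, 4.69 to 7.33). This is an odds ratio of 8.16, interval 6.12 to 11 (Fisher's exact test, two-sided, p = 1.6e-54 after adjustment over 25 motifs). The short core ATTA was in 95.2% of peak windows against 68.3% of flanks (odds ratio 9.28, 6.33 to 14). A peak window held 2.89 ± 1.79 ATTA cores (SD, n = 652) and a flank window 1.54 ± 1.64 (SD, n = 1304). At least 3 cores were found in 54.1% of peak windows and 21.9% of flanks, while 31 members (4.75%) had no ATTA at all. TAATTA itself usually occurred singly: 186 members had 1 copy, 28 had 2 and 7 had 3 or more. These tests compare windows of 1 list with each other, count each window as independent and do not measure the spread between sets.

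The core sat at the maximum. Within 25 bp of it there were 356 TAATTA per kb of sequence per 100 peaks, at 25 to 50 bp 273 and at 50 to 100 bp 104. From 100 to 250 bp away the density was 36.8, and from 1000 to 2000 bp away it was 33.5, so the excess ended about 100 bp from the maximum. Among the 221 members with TAATTA, the nearest copy lay a median of 26.5 bp from the maximum (quartiles 11.5 and 44.5).

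**Figure D2:**
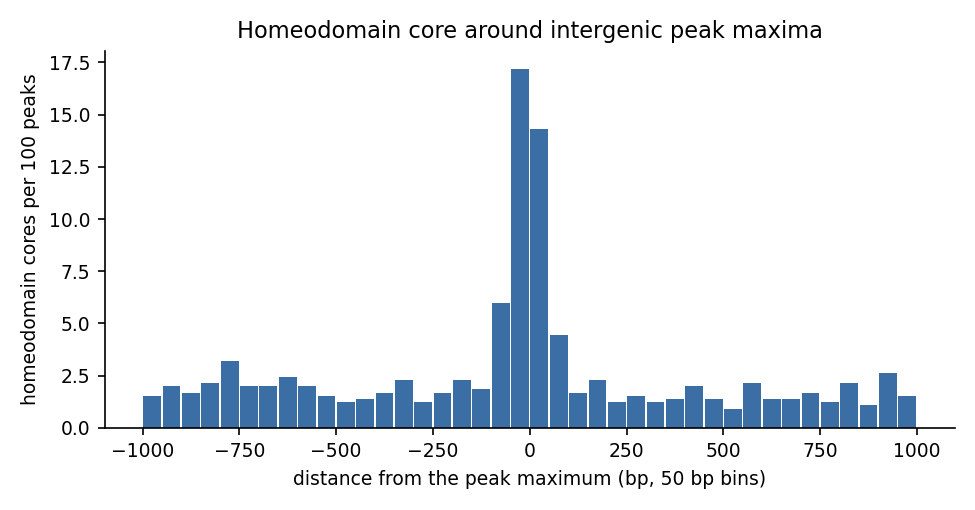
Bars give the number of TAATTA cores per 100 peaks (y axis) in 50 bp bins by distance from the maximum (bp, x axis) over the 652 intergenic peaks. The bins nearest to the maximum stand far above the rest, and beyond 100 bp the bars show no trend on either side.

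The bases beside TAATTA were also unevenly used, counted on both strands together. CTAATTAA was the commonest octamer with 70 of 265 copies in peak windows (26.4%), against 16 of 88 copies in flanks (18.2%). TTAATTAA followed with 22.3% against 13.6%. ATAATTAA made up 7.55% of copies at peaks and 20.5% in flanks, and ATAATTAG 8.68% and 15.9%. An A directly before the core was thus less common at peaks than in flanks in these octamers. The flank counts are small and these shares were not tested.

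Pairs of cores were more frequent at members than in flanks at most distances, beside the higher number of cores per window given above. For gaps of 0 to 15 bases this held at 15 of 16 gaps for TAAT then TAAT, 14 of 16 for TAAT then ATTA and 15 of 16 for ATTA then TAAT, and no test compared one gap with another. ATTA followed after 3 bases by TAAT, as in the Paqr9 and Spry2 members above, was in 30 members (4.6%, 3.13 to 6.5) and in 0.46% of flank windows. Its odds ratio was 10.4, with an interval of 4.24 to 30.8 (adjusted p = 5.3e-09 by Fisher's exact test). TAAT followed after 2 bases by ATTA was in 2.45% against 0.46% (odds ratio 5.44, Fisher's exact, adjusted p = 0.00105). A TAAT repeated after 3 bases was in 1.99% against 0.69% (odds ratio 2.93, Fisher's exact, adjusted p = 0.0421). That last call was lost in 6 of 9 alternatives (Fisher's exact, adjusted p from 0.0751 to 0.719), 500 bp windows (odds ratio 1.27) and flanks at 2 kb (2.02) among them. These arrangements were picked with earlier results of the list known. Among all gaps, given without a test, direct TAAT repeats were most frequent with 0 bases between (6.44% against 0.767%), an arrangement that contains TAATTA, and with 5 (6.13% against 0.844%). ATTA then TAAT was frequent with 2 bases (4.14% against 0.613%), 3 bases and 10 bases between (3.22% against 0.307%), but with 7 bases it was in 0.307% against 0.537%.

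Of the 25 motifs searched on both strands, 10 were more frequent at members than in flanks (40% of those searched), and 2 were less frequent. Beside the 5 homeodomain patterns above, these were TEAD's GGAATG, the E-box CAGCTG, the SOX site ATTGTT, the octamer ATGCAAAT and ATTGAT, a site of Onecut factors and of Hox-Pbx dimers. GGAATG, bound by the TEAD factors of the Hippo pathway, was in 18.6% of members (15.6 to 21.8) against 10.4% of flanks (odds ratio 1.97, interval 1.5 to 2.6, adjusted Fisher's exact p = 3.3e-06). CAGCTG, a site of basic helix-loop-helix factors, was in 15.5% (12.8 to 18.5) against 7.9% (odds ratio 2.14, interval 1.58 to 2.89, adjusted Fisher's exact p = 3.0e-06). ATTGTT was in 14.6% against 10.3% and ATTGAT in 10.6% against 7.36% (odds ratio 1.49 for both, adjusted Fisher's exact p = 0.0178 and 0.0421). ATGCAAAT, the site of POU factors, was in 4.14% against 1.92% (odds ratio 2.21, adjusted Fisher's exact p = 0.0178), and the Lifr member was among the 27 members with it. Over all 2454 peaks of the list, members included, GGAATG was in 17.5% against 10% of flanks and CAGCTG in 13.9% against 8.92%. The odds ratios over all peaks were 1.4 for ATTGTT, 1.54 for ATTGAT and 2.78 for ATGCAAAT, so these excesses were not particular to the members.

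Base composition moved with these counts: mean GC content was 47.9% ± 5.11 (SD, n = 652) in peak windows and 44.1% ± 7.43 (SD, n = 1304) in flanks. The 2 patterns that were less frequent at members were both scrambled controls made of A and T alone, TTATAA (3.37% against 7.21%) and AATATT (2.3% against 8.13%). In a comparison chosen after the data were seen, restricted to windows of 44.5% to 51.5% GC, TAATTA had an odds ratio of 14.7 and the TEAD, E-box, SOX and Onecut sites passed again (1.78, 2.07, 2.24 and 2.36). In that comparison ATGCAAAT did not pass (odds ratio 1.42, Fisher's exact test, adjusted p = 0.643), nor did TAAT with ATTA after 2 bases (3.88, adjusted Fisher's exact p = 0.0888) or either scrambled control.

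The TEAD site and the E-box passed in all 9 alternatives run, but the other 3 sites did not. With flanks at 2 kb the SOX site had an odds ratio of 1.13 (adjusted Fisher's exact p = 0.528) and the Onecut site of 1.22 (0.303). Each of these 2 lost its call in 5 of 9 alternatives, among them the higher-scoring 50% of peaks (adjusted Fisher's exact p = 0.581 and 0.31) and 500 bp windows (0.392 and 0.427). The octamer lost its call in 3, windows of like GC, the higher-scoring 50% (adjusted Fisher's exact p = 0.247) and 10 to 50 kb (0.0595).

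Some motifs were concentrated at the maximum and others were not. Within 50 bp of it, the density of GGAATG was 113 per kb per 100 peaks against 58.5 at 500 to 2000 bp, a ratio of 1.94. The ratio was 9.1 for TAATTA, 13.2 for ATTA with TAAT after 3 bases, 2.92 for ATGCAAAT and 1.97 for CAGCTG, but only 1.29 for the SOX site. The E-box of neurogenins, CAGATG, had a ratio of 0.99, and it was in 13.8% of members and 15.9% of flanks (odds ratio 0.849, 0.642 to 1.12). Inside the members, motif presence was compared between windows with and without TAATTA for 6 motifs, and no pair passed Fisher's exact test after adjustment. CAGCTG came nearest, in 10.9% of members with TAATTA and 17.9% of those without (odds ratio 0.561, interval 0.328 to 0.93, adjusted Fisher's exact p = 0.131).

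**Figure D3:**
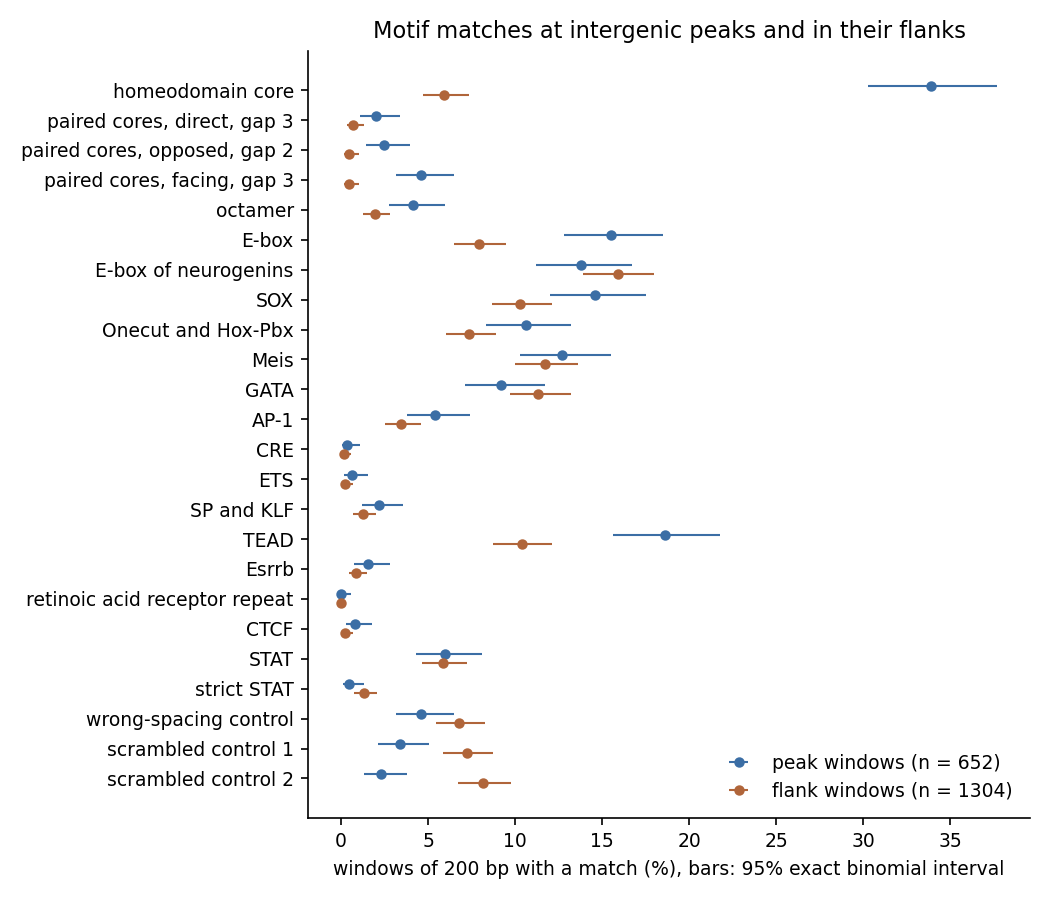
Points give the share of 200 bp windows with a match to each motif (%, x axis) at the 652 intergenic peaks (blue) and in their 1304 flanks (brown), with 95% exact binomial intervals. The homeodomain core lies at 33.9% against 5.9%, the TEAD and E-box sites are also separated from their flanks, and the scrambled controls lie lower at peaks. The short core ATTA (95.2% against 68.3%) is left out of the plot.

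STAT3 is named in the series title beside the LIM complex, and LIF activates STAT3. The STAT site TTCNNNGAA was in 39 members (5.98%, 4.29 to 8.09) and in 5.83% of flank windows. The odds ratio was 1.03, with an interval of 0.672 to 1.55 (adjusted Fisher's exact p = 0.957). The stricter TTCCNGGAA was in 3 members (0.46%) and 1.3% of flanks (odds ratio 0.35, 0.0655 to 1.22). A control with the same ends and 5 bases between them was in 4.6% against 6.75%. Of members with TAATTA, 6.33% held TTCNNNGAA, against 5.8% of those without. No difference was thus detected, and the interval allows an odds ratio of up to 1.55.

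All sequences of 6 bases were then compared in the same windows, with both strands joined. After adjustment over all of them, 284 were more frequent at members (13.7%) and 211 less frequent (10.1%). Of the 48 that contain ATTA or TAAT, 27 were more frequent. TAATTA led (33.9% against 5.9%), followed by AATTAG (35.3% against 8.51%), AATTAA (39.6% against 13.9%), CAATTA (30.8% against 8.51%) and ATTAGC (25.5% against 6.9%). Among those without the core, AATTGC was first (18.1% against 6.06%, odds ratio 3.42), then AGCAGG (29.3% against 15.4%) and CAGCAG (32.1% against 17.8%). Among those less frequent at members, AAAAAA had the lowest p, with 7.98% of members and 24.6% of flanks (odds ratio 0.266). Lower odds ratios were found for CATATA (2.61% against 12.3%, 0.192) and other sequences. In windows of 44.5% to 51.5% GC, 90 were more frequent and 51 less, of which 85 and 49 were among those of the full comparison. AATTGC (21.1% against 5.33%), AATGGC (21.7% against 8.32%) and AGCAGG (30.1% against 15.6%) remained.

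Binding strength and the core were compared inside the members. Those with TAATTA had a median score of 42.56 and those without 40.15. Scores at or above the list's median of 40.95 were found in 55.7% (48.8 to 62.3) and 49% (44.1 to 53.8), which does not show a difference (odds ratio 1.31, interval 0.933 to 1.84, Fisher's exact p = 0.116). In groups of 25% of members from the lowest to the highest score, TAATTA was in 30.7%, 30.7%, 38% and 36.2%.

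Next to other location classes, the members differed little. The classes were intronic peaks at the same distances from starts (n = 550), peaks more than 100 kb from a start (n = 248) and promoter-proximal peaks within 1 kb of one (n = 224). Scores at or above the list's median were found in 51.2% of members (47.3 to 55.1), 48.5% of intronic, 51.2% of far and 53.1% of promoter-proximal peaks, with odds ratios of 1.11 (0.881 to 1.41), 1 (0.739 to 1.36) and 0.927 (0.676 to 1.27). TAATTA was in 33.9% of members, 37.3% of intronic, 33.5% of far and 31.7% of promoter-proximal peaks, with odds ratios of 0.863 (0.676 to 1.1), 1.02 (0.74 to 1.41) and 1.1 (0.79 to 1.55). None of these 6 comparisons passed Fisher's exact test, whose lowest adjusted p was 0.68. Background scores at most 10% of the ChIP score were found in 93.9% of members, 96.4% of intronic, 95.6% of far and 95.1% of promoter-proximal peaks, and again no difference passed (lowest adjusted Fisher's exact p = 0.186, odds ratio 0.578, 0.316 to 1.03, for intronic peaks). Mean GC content was 47.9% in members, 47.7% in intronic, 46.8% in far and 51.2% in promoter-proximal windows.

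Motif by motif, 0 of 25 differed between members and intronic peaks (0% called by Fisher's exact test, lowest adjusted p = 0.354). At an unadjusted p under 0.05 there were 2. The E-box CAGCTG was in 15.5% of members and 11.1% of intronic peaks (odds ratio 1.47, 1.03 to 2.1), and TAAT with ATTA after 2 bases in 2.45% and 4.91% (odds ratio 0.488, 0.243 to 0.95). For GGAATG the shares were 18.6% and 17.8% (odds ratio 1.05, 0.775 to 1.43).

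How closely peaks were grouped did differ, in a way that depends on the count used. Another peak lay within 10 kb of 115 members (17.6%, 14.8 to 20.8) and of 24% of intronic peaks (20.5 to 27.8). The odds ratio was 0.678, with an interval of 0.507 to 0.907 (adjusted Fisher's exact p = 0.0238). Regions with several maxima are counted there. Such regions held 50 members (7.67%, 5.75 to 9.99), 14.9% of intronic (12 to 18.2), 13.7% of far (9.68 to 18.6) and 13.8% of promoter-proximal peaks (9.6 to 19.1). Counting only peaks of another region, 12.6% of members and 12.4% of intronic peaks had one within 10 kb (odds ratio 1.02, 0.713 to 1.46), while far peaks had one in 6.45% (odds ratio 2.08, interval 1.18 to 3.9, adjusted Fisher's exact p = 0.0245). Peaks of a group are not independent, so these p-values are too small.

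**Figure D4:**
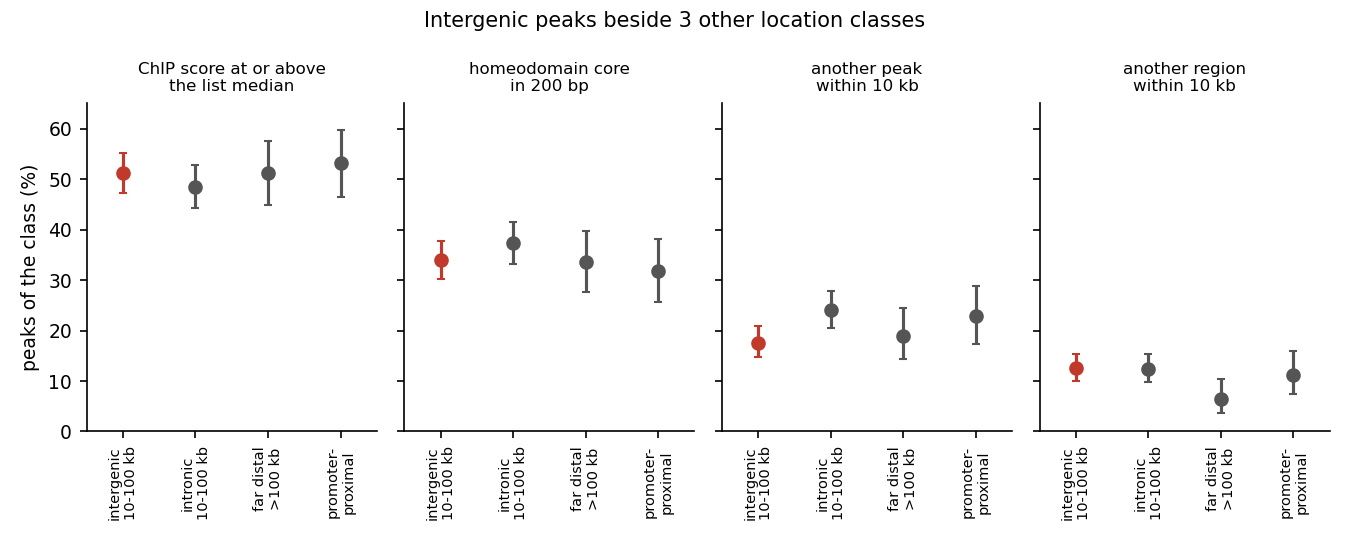
Points give, for intergenic members (red) and 3 other location classes (grey), the share of peaks (%, y axis) with a score at or above the list median, with TAATTA, with another peak within 10 kb and with a peak of another region within 10 kb, with 95% exact binomial intervals. Shares of the first 2 measures overlap between classes (51.2% and 33.9% for members), and the last measure is lowest for far distal peaks, at 6.45%.

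Gene by gene, 551 protein-coding genes were the nearest protein-coding neighbour of at least 1 member, which is 2.46% of all 22367. Of these, 479 had a single member, 56 had 2 and 16 had more. Spry2, which encodes a feedback inhibitor of receptor tyrosine kinase signalling, had most by the nearest protein-coding start, with 9 members in 8 regions. They lay 24.2 kb upstream of its start and 35.7 to 97.3 kb downstream. Their scores ran from 30.78 to 80.03 and 3 of them held TAATTA. The strongest, printed above, was also the farthest. By the nearest start of any gene, 4 of the 9, the strongest included, belonged to the miRNA gene AC140340.1 and 5 to Spry2, fewer than the 6 of Sall1. These are counts of peaks. By regions, those 5 members of Spry2 lay in more than the 3 regions of Sall1.

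Sall1, a zinc-finger gene of stem cells and developing organs, had 6 members in 3 regions. A single member of score 39.34 lay 19.7 kb upstream, and 5 lay downstream at 40.5 to 52.1 kb with scores of 31.58 to 57.01. None of the 6 held TAATTA. With 4 members each, ordered by their strongest peak, came 1700009N14Rik (95.82), Fam53a (84.04) and Med13l, a Mediator kinase-module gene (82.17), and Cd2ap (56.21) also had 4. The Fam53a members lay within 72.4 to 79.6 kb downstream of its start. Those of Med13l lay 102 to 126 kb upstream of it, with a miRNA gene nearer.

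Pluripotency genes had the largest share among 16 gene lists. Of 21, 8 (38.1%) were the nearest protein-coding gene of a member, beside 2.46% of all protein-coding genes. Counting peaks of any class, 11 of the 21 were nearest to a peak. For other lists this count was 6 of 12 matched cholinergic genes, 15 of 36 axon guidance genes and 8 of 20 motor neuron factors. It was 5 of 18 housekeeping and 0 of 16 blood genes. The share of all protein-coding genes nearest to a peak of any class was not counted, and 2.46% covers members alone. Prdm14, a repressor of differentiation in stem cells, had 2 members of score 86.18 and 36.67 in 1 region, 52.2 and 52.5 kb downstream of its start. Tbx3 had a member of 70.93 at 25.8 kb downstream and Zfp42 (Rex1) of 54.07 at 13.8 kb upstream, and the Sall1 members are described above. Klf5 (41.75, 41.5 kb downstream), Klf2 (35.33, 14.5 kb downstream) and Klf4 (33.19, 397 kb upstream) encode Krüppel-like factors of stem cell self-renewal. Sox2 had a member of score 34.79 at 111 kb downstream of its start, nearest to a start of the noncoding Sox2ot. Sox2 is known to have a stem cell enhancer far downstream, and whether this member falls in it was not tested. By the nearest start of any gene, 4 of the 21 genes had a member, since Tbx3, Klf5, Sox2 and Klf4 then gave way to noncoding or other genes. The share of all protein-coding genes was not counted by that rule, so 2.46% does not apply to it.

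The stretch of genome for which a gene has the nearest protein-coding start differs between genes. Its median was 45.5 kb over all protein-coding genes, 184 kb over the 551 genes with a member and 91.1 kb over the pluripotency genes. Its part in the lists' counts was not tested. The lists were chosen with earlier results of this peak list known, and their shares are a description.

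Axon guidance genes had a member in 6 of 36 cases (16.7%), with a median stretch of 422 kb. Sema3e (67.45, 41.4 kb upstream) and Sema3f (59.95, 13.5 kb upstream) encode secreted semaphorins. Robo3 (40.42, 23.6 kb upstream) encodes a receptor that lets commissural axons cross the midline, and Epha7 (39.88, 31.1 kb upstream) an ephrin receptor. Of sprouty and FGF signalling genes, 3 of 16 had a member (18.8%): Spry2, Fgfr1 (63.97, 121 kb upstream) and Spry1 (30.51, 17.2 kb downstream).

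In the JAK-STAT and LIF pathway, 3 of 30 genes had a member (10%), and the pair that forms the LIF receptor was among them. Lifr had its single peak of the list there. Il6st, which encodes the shared subunit gp130, also had its only peak among the members (48.98, background 1.86, 29 tags, 19.4 to 41.6), 75.5 kb upstream. The printed Il6st stretch holds TAATTA, whereas the 200 bp window of the Lifr member holds 1 ATTA and the octamer. Pim1, a kinase gene induced by STATs, had 2 members, both of score 31.58, 52.2 and 53.7 kb upstream. Stat3 and Socs3 were the nearest protein-coding gene of no peak.

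Genes of motor neurons and the spinal cord had shares from 5% to 11.1% per list, beside 2.46% of all protein-coding genes. Their counts are of 1 to 3 genes each. The lists of glia (11.8%), endoderm and liver (6.25%), skeletal muscle (6.25%) and housekeeping genes (5.56%) had shares of like size, and blood had 0%. The median stretch was 99.5 kb for motor neuron factors and 122 kb for interneuron factors. It was 77.9 kb for column and pool genes and 47.3 kb for cholinergic genes, beside 45.5 kb over all protein-coding genes. Of 20 motor neuron transcription factors, 1 had a member (5%): Nkx6-1, a homeobox gene of ventral progenitors, with 2 members (46.84 and 34.79) 127 kb downstream. Isl1, Lhx3, Mnx1 and Chat had peaks, but none that met the rule. Of the 8 factors in this list that were nearest to any peak, 7 therefore had it elsewhere. Spinal interneuron factors had a member in 3 of 27 cases (11.1%). Lhx5 had 2 members, of 83.51 at 127 kb upstream and 80.29 at 15.7 kb downstream, Lbx1 had 1 (65.57, 57.8 kb upstream) and Foxd3 had 1 (35.60, 19.4 kb upstream). The stronger Lhx5 member held 2 copies of TAATTA. Of 12 matched cholinergic genes, 1 had a member (8.33%), the nicotinic receptor gene Chrnb4 (58.35, 34.8 kb upstream, 2 copies of TAATTA). By the nearest start of any gene, neither Nkx6-1 nor Chrnb4 had a member, as a processed transcript and a U7 gene were nearer, and both lists then had 0. Skeletal muscle then also had 0, while glia kept 2 genes, endoderm and liver 1 and housekeeping 1. Among genes of motor columns and pools, 2 of 21 had one (9.52%), Gfra3 (41.75) and Pou3f1 (32.92).

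The remaining lists rested on 0 to 2 genes each, with shares from 0% to 11.8%. Ion channel and synapse genes had 1 of 34 (2.94%, Cacna1a 58.62). Notch pathway genes had 1 of 18 (5.56%, Rbpj 39.34, 2 members) and retinoic acid pathway genes 1 of 18 (5.56%, Aldh1a3 30.51). Among lists of other cell types, glia had 2 of 17 (11.8%, Nfib 55.67 and Slc1a3 42.56) and blood 0 of 16. Endoderm and liver had 1 of 16 (6.25%, Apob 119.10) and skeletal muscle 1 of 16 (6.25%, Pax3 101.71, at 224 kb). The housekeeping list, a control, had 1 of 18 (5.56%, Ywhaz 53.26).

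**Figure D5:**
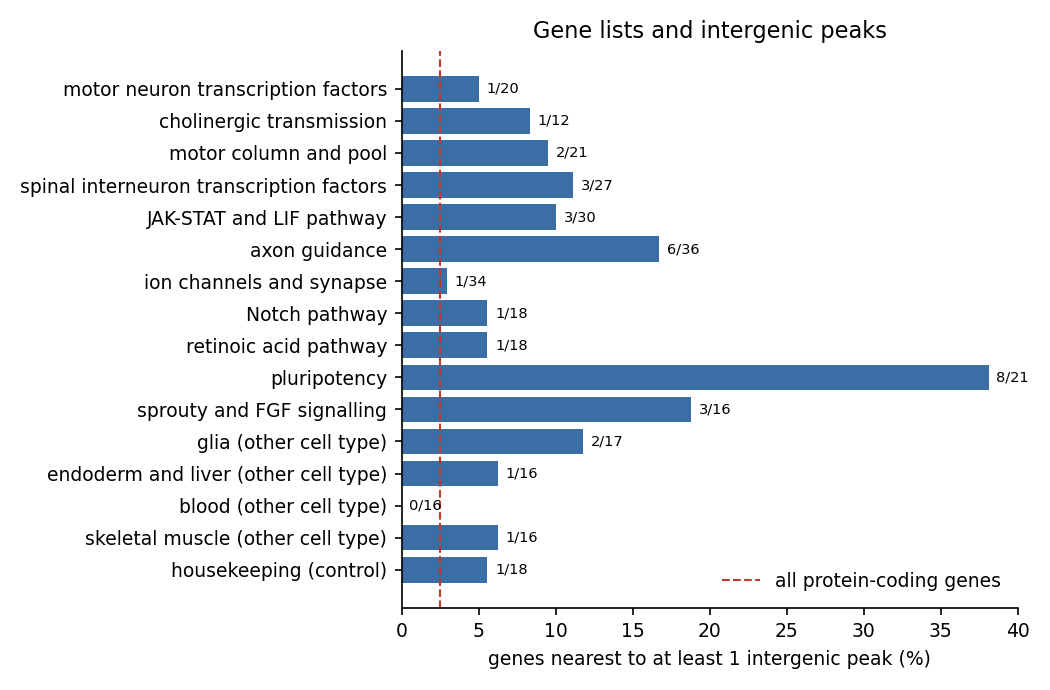
Bars give, for 16 gene lists, the share of matched genes that are the nearest protein-coding gene of at least 1 intergenic member (%, x axis), with the counts beside them and the share of all protein-coding genes (2.46%) as a dashed line. Pluripotency genes reach 38.1% (8 of 21), and blood genes have 0 of 16.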

How the data were processed

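Flag ChIP-seq was run on 4 libraries. Per the submitters' processing notes, BWA 0.5.8a and build mm9 were used. On the peak caller, its threshold and any pooling of sets, nothing is given in the sources used here. In 1 list of 2455 peaks the authors deposited a ChIP score, a background score and a tag count, with no unit stated for the scores. The peak on the mitochondrial genome was dropped. Coordinates are 1-based on mm9 (NCBIM37), and starts and gene bodies came from GENCODE M1. Windows were read from NCBIM37 with pysam 0.24.0.

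Shares were compared by two-sided Fisher's exact tests (scipy 1.17.1), with Benjamini-Hochberg adjustment within each family (3 classes, 25 motifs or all 6-mers), a threshold of 0.05 and 95% exact intervals that cover counting error only. The motif and 6-mer comparisons with flanks were tried on simulated windows with planted motifs. Peak and flank windows had the same base composition there, so that trial cannot show calls that come from composition. Lists were matched by symbol. Tfcp2l1 and Spi1 matched by older symbols and Slc18a3 did not match. Named are the 12 strongest members, the 5 genes with most members (ties by the strongest peak) and up to 4 genes per list. In the pluripotency list, all 8 genes with a member were named, beyond that limit. Lifr, Il6st, Lhx3, Isl1, Mnx1, Chat, Stat3, Socs3 and the peaks at the limits are also named. Members, lists, motifs and tests were chosen with earlier results of these data known. Some peaks are not reported here.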

Additional observations from a re-analysis of the deposited data

How the results depend on the processing

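No paired analysis was possible because no column of the list carries a replicate number or a value per library, and for the same reason leaving out a library was impossible. The repeat comparison was not run, since the reference sequence is not soft-masked. The background comparison has no value among peaks chosen for a low background score.

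The excess of TAATTA over flanks and the 0 motifs that differed from intronic peaks held in all alternatives run, with TAATTA odds ratios from 4.11 (500 bp windows) to 14.7 (windows of like GC, chosen after the data were seen). Against intronic peaks, the lower share of members with another peak within 10 kb lost its call among the higher-scoring 50% of peaks (odds ratio 0.877, Fisher's exact test, adjusted p = 0.928), with protein-coding genes alone (0.808, 0.446) and at 10 to 50 kb (0.716, 0.0928). It turned with 1 peak per region (1.02) and with peaks of a different region (1.02), where the odds ratios against far peaks turned to 2.03 (not called) and 2.08 (called) and those against promoter-proximal peaks to 1.11 and 1.14. With protein-coding genes alone it was 1.01 against far peaks.

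Odds ratios that passed in no setting also changed side of 1. For high scores these were 1.26 (higher-scoring 50%), 1.11 (tags) and 1.1 (upper quartile) against promoter-proximal peaks and 0.961 (10 to 50 kb) against far peaks. For TAATTA against far peaks they were 0.928 (higher-scoring 50%), 0.896 (protein-coding genes), 0.991 (10 to 50 kb) and 0.891 (500 bp), and for low background against far peaks 1.01 (protein-coding genes). For TTCNNNGAA against flanks they were 1 (higher-scoring 50%), 0.985 (low background), 0.964 (500 bp) and 0.727 (flanks at 2 kb). Motifs above and below flanks numbered 6 and 1 among the higher-scoring 50%, which has fewer peaks, and 0 were below in windows of like GC. The 6-mers above flanks numbered 178 in 100 bp windows and 90 in windows of like GC, and those below 51 there. Of 336 distinct list genes, 35 had a member, 57 with either flanking gene counted and 25 by the nearest start of any gene. The share of all protein-coding genes (2.46%) was counted for the first of these rules alone, so the other counts have no share beside them.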

Other observations

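Chromosome 5 held 57 of the 652 members (8.74%), the largest count of any chromosome, against 22 of the 550 intronic peaks at the same distances (4%). Over all peaks its share was 6.64%. On chromosome X there were 11 members of 34 peaks. These counts were not tested.

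Besides the Ly6c2 member, background reached 20% of the ChIP score or more at 4 members. The nearest protein-coding genes were 9330188P03Rik (ChIP score 31.31, background 7.60), Apbb1ip (39.88, 8.82), 9030625A04Rik (33.46, 7.05) and Fam174a (32.39, 6.57), and 191 members (29.3%) had a background score of 0.

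The 3 strong members named next were picked with their values known. The Pax3 member (score 101.71, background 0) lay 224 kb from the start, in a window with 7 ATTA cores, and it is also 1 of the 3 members with the strict STAT site. The member nearest to Tmeff2 (112.41) lay 248 kb upstream of it. A member of score 114.02 with TAATTA lay 15.4 kb upstream of Slc32a1, which encodes the vesicular transporter of GABA and glycine in inhibitory neurons. Pax3, Tmeff2 and Slc32a1 are the nearest protein-coding genes of these members. In the same order, the nearest starts of any gene were those of a U1 gene (74 kb), a 7SK gene (92.7 kb) and the noncoding Gm14204 (15.3 kb).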
